A study of Rattus norvegicus with 8 samples.

Results

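The core genes of autophagy and the muscle atrophy ubiquitin ligases were examined in rat primary thymocytes, the immature T lymphocytes of the thymus, with and without dexamethasone. The genes chosen were Ulk1, Becn1, Map1lc3a, Map1lc3b, Gabarapl1, Atg5, Atg12, Sqstm1, Fbxo32 and Trim63, and their probes were those that the array lists under these gene names. Of 41012 probes, 16 met this rule, and they belong to 7 of the 10 genes (Becn1, Map1lc3a, Map1lc3b, Atg12, Sqstm1, Fbxo32 and Trim63). The other three names are not used by the array in this form, and 4 probes that name Ulk1, Atg5 or Gabarapl1 in another way are described apart and not counted. Control cells were cultured for 6 hours without hormone, and Dex cells were cultured for 6 hours with 100 nM dexamethasone, a synthetic glucocorticoid. Both groups came from adrenalectomized male Sprague-Dawley rats 1 to 2 weeks after surgery, so that Control animals also lacked adrenal hormone, and each preparation pooled the thymi of 3 animals. The age of the animals is not given in the sources used here. There were 4 arrays of each group, and all 8 were analyzed. The methods speak of fewer replicates in each group without naming the arrays. Since the labels do not tie an array to its own culture, p-values measure the spread between these arrays.

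Autophagy encloses cytoplasm in a double membrane and delivers it to the lysosome. The ULK1 kinase starts the process, Beclin 1 and its lipid kinase partners nucleate the membrane, and a ubiquitin-like conjugation system that includes ATG5 and ATG12 attaches LC3 and GABARAP proteins to it, where they bind receptors such as p62 that carry cargo. Atrogin-1 (Fbxo32) and MuRF1 (Trim63) are ubiquitin ligases that rise in skeletal muscle under glucocorticoid treatment, and the FoxO factors drive both ligases and several autophagy genes in that tissue.

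Signal was read on Agilent Whole Rat Genome arrays, which carry 60-base probes and 1 color of dye, and is given throughout as log2 intensity, quantile normalized between arrays. A difference between groups is a log2 fold change, Dex minus Control, from limma, and a probe was called at an adjusted p of 0.05 over all 41012 probes. The scanner software found between 24908 and 34472 probes per array well above background, with the lower counts on Control 1 (28665), Dex 1 (26471) and Dex 2 (24908). The arrays lay on 3 slides, Control 1 with Dex 3, Control 2 to 4 together, and Dex 1, 2 and 4 together. All 10 double positive thymocyte markers on the array, Cd4, Cd8a and Rag1 among them, were well above background on every array that gave a value. The mean level of the 9 of them with a value on all 8 arrays (without Cd8b) was 12.65 to 12.88 in Control and 12.27 to 12.59 in Dex, so that every Dex array was below every Control array for this mean. The markers did not move together. Of the 10, 7 had a negative and 3 a positive difference, and Cd8b, left out of the mean, was higher on every Dex array (16.42 to 16.51) than on the Control arrays with a value (15.81 to 16.19), at 0.52 (limma adjusted p = 0.326). The part of these differences in the results below was not tested. No gene of the marker lists of thymocytes, macrophages, B cells, stromal cells, erythroid cells or skeletal muscle was called. Of 8 stromal markers, 4 of them well above background on every array, 7 had a positive and 1 a negative difference. Their mean level was 5.05 to 5.44 in Control and 5.38 to 5.79 in Dex, ranges that overlap, and its part in the results below was not tested.

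None of the 16 probes was called, against 0.778% of all probes (0.563% higher in Dex). Their limma adjusted p-values ran from 0.327 to 0.963. The difference was positive for 11 probes and negative for 5, with a median of 0.12 on the log2 scale beside 0.00 over all probes. These counts include both Trim63 probes and Sqstm1 A_44_P550423, which were not well above background on every array, and 8 of the 11 positive probes belong to Map1lc3b and Sqstm1. The 13 probes that were well above background on every array, as 58.5% of all probes were, split into 9 positive and 4 negative. With the brightest probe for each of the 7 genes, 4 differences were positive and 3 negative, with a median of 0.03. An unadjusted p under 0.05 was reached by 2 probes, both of Map1lc3b and both higher in Dex, where 10.6% of all probes reached it and 5.63% did so with a higher Dex signal. All 4 Dex arrays lay above all 4 Control arrays for 4 probes, 3 of Map1lc3b and 1 of Sqstm1, where 4.6% of all probes had that order. Probes of 1 gene read transcripts of the same gene and are not independent of each other. In a bulk sample, fewer cells of a type and less RNA per cell cannot be told apart.

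**Figure D1:**
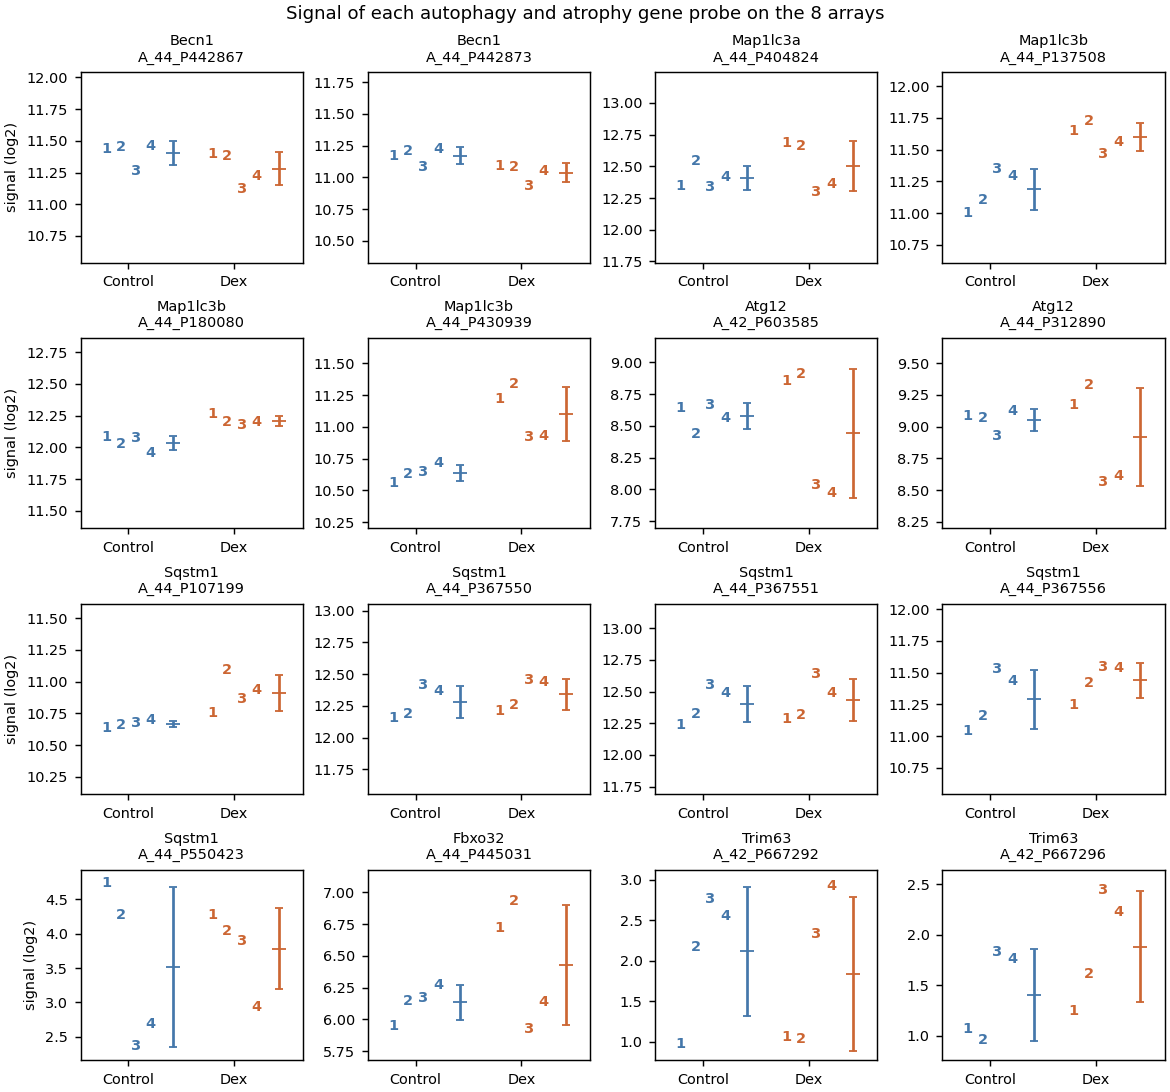
Signal on the log2 scale of the 16 probes on each array, where the digits 1 to 4 are the replicate numbers of the Control (blue) and Dex (orange) arrays, and the bar beside them is the mean with its SD (n = 4). Each panel has its own vertical axis, and the groups lie apart only for the 3 Map1lc3b probes and Sqstm1 A_44_P107199.

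Map1lc3b, which encodes the LC3B protein that marks the autophagosome membrane, was the gene of the list whose groups lay apart with every probe. It lies on chromosome 19 of rat build rn3, on the forward strand, and 3 probes read it. The brightest, A_44_P180080 (chr19:51857623-51857682), had 12.08, 12.03, 12.07 and 11.96 on Control arrays 1 to 4 and 12.26, 12.20, 12.17 and 12.20 on Dex arrays 1 to 4. Every Dex array was above every Control array, by a small step, with means of 12.04 ± 0.06 and 12.21 ± 0.04 (SD, n = 4). The log2 fold change was 0.17 (SE 0.13, 95% interval -0.12 to 0.47, limma adjusted p = 0.712). Its sequence is shown because it is the probe whose arrays agreed most closely within each group among the Map1lc3b probes.
Map1lc3b A_44_P180080: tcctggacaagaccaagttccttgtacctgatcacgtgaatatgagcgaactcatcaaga

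The other Map1lc3b probes lie 3′ of this one and differed more. Probe A_44_P430939, which is listed under another accession of the gene (U05784) and is placed at chr19:51858435-51859329, read 10.56, 10.63, 10.64 and 10.72 in Control and 11.22, 11.34, 10.92 and 10.93 in Dex. Dex 1 and Dex 2 were the highest, and Dex 3 and Dex 4 were still above all Control arrays. The difference was 0.46 (SE 0.16, 95% interval 0.10 to 0.83, limma adjusted p = 0.327), a 1.38-fold higher signal. For A_44_P137508 (chr19:51859044-51859103) the Control arrays read 11.00, 11.11, 11.35 and 11.29 and the Dex arrays 11.64, 11.72, 11.47 and 11.56. The groups again did not overlap, and the closest arrays were Control 3 and Dex 3. The difference was 0.41 (SE 0.15, 95% interval 0.06 to 0.76, limma adjusted p = 0.373), or 1.33-fold. Neither probe passed over all probes, although the interval of each difference taken alone lay above 0. The signal to noise statistic named in the methods, a permutation test at a nominal p of 0.01 with a fold change of 1.2, called both of these probes (nominal p = 0.00233 and 0.00357) and no other of the 16, where it called 6.79% of all probes and 3.59% as higher in Dex. That statistic also put A_44_P180080 (1.13-fold) and Sqstm1 A_44_P107199 (1.19-fold) under its permutation threshold of 0.01, and both stayed below its fold threshold. The differences of the 3 probes stayed positive in all 16 limma alternatives, at 0.36 to 0.53 for A_44_P430939, 0.35 to 0.47 for A_44_P137508 and 0.09 to 0.19 for A_44_P180080.

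**Figure D2:**
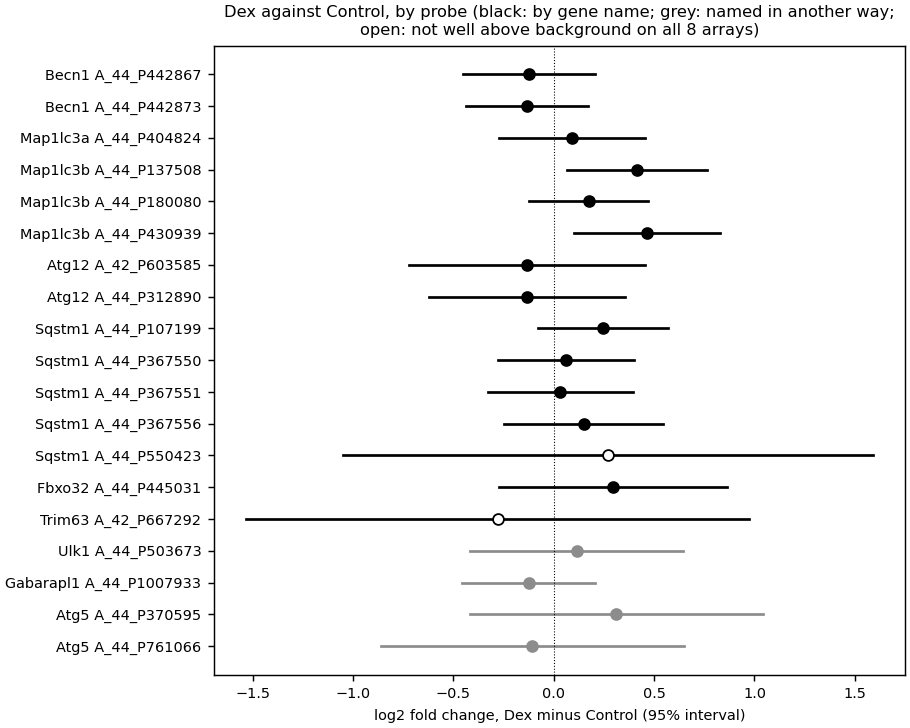
Log2 fold change, Dex minus Control, with its 95% interval from limma for each probe, where black stands for probes found by gene name, grey for probes that name the gene in another way and open circles for probes not well above background on all 8 arrays. Trim63 A_42_P667296 is left out because it was not well above background on any array, and only the intervals of Map1lc3b A_44_P430939 and A_44_P137508 lie clear of 0.

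Map1lc3a encodes LC3A, a close relative of LC3B. Its single probe, A_44_P404824 (chr3:145666078-145666137), read 12.35, 12.54, 12.34 and 12.41 in Control and 12.68, 12.66, 12.30 and 12.36 in Dex. Dex 1 and Dex 2 were above all Control arrays, while Dex 3 was below all of them and Dex 4 was among them. The difference was 0.09 (95% interval -0.27 to 0.45, limma adjusted p = 0.887), and leaving out 1 array gave 0.03, without Dex 1, to 0.16, without Dex 3.

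Gabarapl1, whose protein belongs to the GABARAP branch of the same family, is not a gene name on the array. One probe, A_44_P1007933 (chr4:167056104-167056163), is listed as LOC683917 and described there as similar to Gabarapl1, and it was chosen after its values were seen. That it reads Gabarapl1 rests on this description alone and was not checked against a genome. Its Control arrays read 13.83, 13.98, 13.65 and 13.66 and its Dex arrays 13.66, 13.68, 13.64 and 13.64. The 4 Dex arrays stood together, Control 1 and Control 2 were higher, and the difference was -0.13 (95% interval -0.45 to 0.20, limma adjusted p = 0.819). Between arrays of the same replicate number it was -0.17, -0.30, -0.01 and -0.02, without a call with the replicate block (limma adjusted p = 0.751). The 2 other GABARAP genes, named after their values were seen, went opposite ways without a call, Gabarap at 0.37 (limma adjusted p = 0.405) and Gabarapl2 at -0.29 (limma adjusted p = 0.518), and their groups did not overlap. The signal to noise statistic, a permutation test, called both, Gabarap 1.29-fold higher (nominal p = 0.00254) and Gabarapl2 0.817-fold (nominal p = 0.00255).

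Ulk1 encodes the kinase that starts autophagy, and the array lists its probe A_44_P503673 (chr12:45884779-45884915) as Ulk1_mapped. Control arrays read 7.40, 8.10, 8.16 and 8.36 and Dex arrays 8.25, 8.27, 7.98 and 7.97. Control 1 was the lowest of the 8, and the other 7 arrays overlapped. The difference was 0.11 (95% interval -0.42 to 0.64, limma adjusted p = 0.904).

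Becn1 encodes Beclin 1, the scaffold of the lipid kinase complex that nucleates the membrane, and both of its probes lie on the reverse strand of chromosome 10. Probe A_44_P442873 (chr10:90334458-90335572) read 11.17, 11.21, 11.08 and 11.22 in Control and 11.09, 11.08, 10.93 and 11.05 in Dex. Control 3 was within the Dex range and the remaining Control arrays were above it, which gave a difference of -0.13 (SE 0.13, 95% interval -0.44 to 0.17, limma adjusted p = 0.787). Its neighbor A_44_P442867 (chr10:90333024-90333827) read 11.44, 11.45, 11.26 and 11.46 in Control and 11.40, 11.38, 11.12 and 11.22 in Dex, and differed by -0.12 (95% interval -0.45 to 0.21, limma adjusted p = 0.822). Between arrays of the same replicate number the differences were all negative, -0.08, -0.13, -0.15 and -0.18 for A_44_P442873 and -0.04, -0.07, -0.14 and -0.24 for A_44_P442867, and neither probe was called with the replicate block (limma adjusted p = 0.717 and 0.744). On both probes Control 3 was the lowest Control array and Dex 3 the lowest of all 8. The sequences are given because the probes lie at positions that do not overlap and gave nearly equal differences.
Becn1 A_44_P442873: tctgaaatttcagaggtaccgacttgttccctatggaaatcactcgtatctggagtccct
Becn1 A_44_P442867: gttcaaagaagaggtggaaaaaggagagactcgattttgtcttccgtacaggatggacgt

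Atg12, the ubiquitin-like protein that is joined to ATG5, had the largest spread among the Dex arrays of the autophagy genes found by name whose probes were all well above background. Probe A_44_P312890 (chr18:40972338-40972397) read 9.09, 9.07, 8.93 and 9.12 in Control and 9.17, 9.33, 8.56 and 8.61 in Dex. Probe A_42_P603585 (chr18:40973343-40973402) read 8.64, 8.44, 8.66 and 8.56 in Control and 8.85, 8.91, 8.03 and 7.97 in Dex. On both, Dex 1 and Dex 2 lay above all Control arrays and Dex 3 and Dex 4 below all of them. The SD was 0.39 and 0.51 in Dex against 0.09 and 0.10 in Control, and the differences were -0.13 for each (95% intervals -0.62 to 0.36 and -0.72 to 0.45, limma adjusted p = 0.878 and 0.899). Leaving out 1 array gave -0.29, without Dex 2, to 0.02, without Dex 4, for A_42_P603585, and -0.27, without Dex 2, to -0.01, without Dex 3, for A_44_P312890. Between Control 1 and Dex 3, which shared a slide, the differences were -0.61 and -0.52.

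Atg5 was read by 2 probes that do not carry its name. Probe A_44_P761066 (chr20:48394956-48395015), which reaches Atg5 through its RefSeq accession, had the order seen for Atg12, with 7.66, 7.24, 7.38 and 7.50 in Control and 7.78, 8.06, 6.84 and 6.67 in Dex. It differed by -0.11 (95% interval -0.86 to 0.65, limma adjusted p = 0.939). Probe A_44_P370595 (chr20:48378780-48378839), listed under an older accession of the locus, had the opposite order, with 5.32, 5.73, 4.69 and 4.56 in Control and 5.12, 4.97, 5.75 and 5.71 in Dex. Here Dex 3 and Dex 4 were the higher Dex arrays, the groups overlapped, and the difference was 0.31 (95% interval -0.42 to 1.04, limma adjusted p = 0.794). It was 0.09 with normexp, 0.17 with 75th percentile scaling, 0.14 without Control 4 and 0.53 without Control 2. The 2 probes of Atg5 thus disagreed in the order of the arrays.

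Sqstm1 encodes p62, a receptor that binds both ubiquitin and LC3 and is itself degraded by autophagy. Its 5 probes all had a positive difference, between 0.03 and 0.27, and none was called. Probe A_44_P107199, for another transcript of the gene (NM_181550, chr10:35760767-35760928), read 10.63, 10.66, 10.68 and 10.70 in Control and 10.76, 11.09, 10.87 and 10.93 in Dex. The SD was 0.03 in Control and 0.14 in Dex, all Dex arrays lay above the Control arrays, and Dex 1 was the closest. The difference was 0.24 (SE 0.14, 95% interval -0.08 to 0.57, limma adjusted p = 0.617).
Sqstm1 A_44_P107199: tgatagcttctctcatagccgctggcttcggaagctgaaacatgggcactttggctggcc

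The other Sqstm1 probes are listed under NM_175843, apart from the dimmest. Probe A_44_P367551 (chr10:35752816-35752875) read 12.24, 12.33, 12.55 and 12.48 in Control and 12.28, 12.32, 12.64 and 12.49 in Dex, with a difference of 0.03 (95% interval -0.33 to 0.39, limma adjusted p = 0.963). Probe A_44_P367550 (chr10:35752775-35752834) read 12.16, 12.18, 12.41 and 12.37 in Control and 12.21, 12.26, 12.45 and 12.44 in Dex, with a difference of 0.06 (95% interval -0.28 to 0.40, limma adjusted p = 0.920). In each group replicates 3 and 4 were higher than replicates 1 and 2 on both probes, and the groups overlapped. Between arrays of the same number, A_44_P367550 was higher in Dex by 0.06, 0.08, 0.04 and 0.07 and was not called with the replicate block (limma adjusted p = 0.874), whereas A_44_P367551 differed by 0.04, -0.01, 0.09 and 0.01. These probes share 19 bases, so they are in part the same measurement.
Sqstm1, bases shared by A_44_P367551 and A_44_P367550: AGAAGAGAGTCTGAGTGTG
Probe A_44_P367556 (chr10:35754638-35754697) lies outside that stretch and read 11.04, 11.16, 11.53 and 11.44 in Control and 11.25, 11.42, 11.55 and 11.54 in Dex, again higher in replicates 3 and 4 of both groups, for a difference of 0.15 (95% interval -0.25 to 0.54, limma adjusted p = 0.820). By replicate number its Dex arrays were higher by 0.21, 0.27, 0.02 and 0.10, without a call with the replicate block (limma adjusted p = 0.696). Its difference was 0.06 without Control 1, 0.23 without Control 3 and 0.51 between Control 1 and Dex 3. The dimmest probe, A_44_P550423, was well above background on 3 arrays of each group. It spread from 2.36 to 4.73 in Control and from 2.93 to 4.27 in Dex and gives no usable difference (0.27, 95% interval -1.05 to 1.59).

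**Figure D3:**
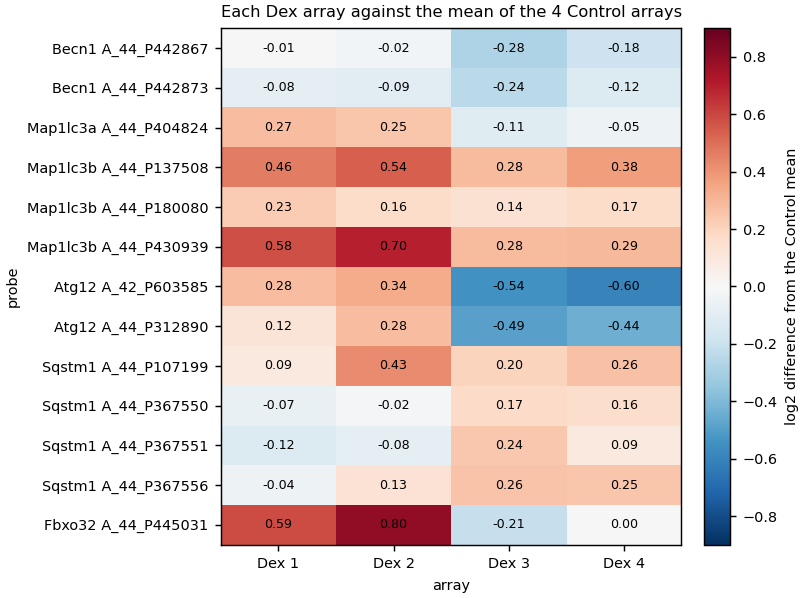
Difference on the log2 scale between each Dex array (columns) and the mean of the 4 Control arrays, for the 13 probes (rows) that were well above background on all 8 arrays, with red for higher and blue for lower. All 4 columns are positive for the Map1lc3b probes and for Sqstm1 A_44_P107199, whereas Atg12 is positive on Dex 1 and Dex 2 and negative on Dex 3 and Dex 4.

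The 4 Dex arrays differed among themselves in a way that ran through the list. Of the 13 probes well above background on every array, 8 had both Dex 1 and Dex 2 above both Dex 3 and Dex 4, and 3 had the opposite order. Over all 23987 probes with such signal the corresponding shares were 58.8% and 24.5%, so that the order is not particular to these genes. Dex 1 and Dex 2 were also the arrays with the fewest probes well above background, and the part of that difference in the order of the arrays was not tested. The SD was larger in Dex than in Control for 11 of the 16 probes, against 75.4% of all probes.

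Fbxo32 encodes atrogin-1, the F-box subunit of a ubiquitin ligase of atrophying muscle. Its probe A_44_P445031 was dim but well above background on all arrays, and it is placed at chr7:94956052-94967129 on the reverse strand. The Control arrays read 5.94, 6.14, 6.17 and 6.27 and the Dex arrays 6.72, 6.93, 5.93 and 6.14. Dex 1 and Dex 2 stood above all Control arrays, whereas Dex 3 was the lowest of the 8 and Dex 4 was among the Controls. The difference was 0.30 (SE 0.25, 95% interval -0.27 to 0.86, limma adjusted p = 0.740), and between Dex 3 and Control 1, the arrays that shared a slide, it was -0.02. Leaving out 1 array at a time gave 0.13, without Dex 2, to 0.46, without Dex 3. The interval leaves room for a 1.82-fold higher and a 0.828-fold signal.
Fbxo32 A_44_P445031: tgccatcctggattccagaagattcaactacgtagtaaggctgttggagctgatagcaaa

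Trim63 encodes MuRF1, a RING finger ligase that targets myosin and other proteins of the sarcomere. Its signal was at or near background. Probe A_42_P667296 (chr5:153083526-153083585) was not well above background on any of the 8 arrays, so no fold change is given for it. Probe A_42_P667292 (chr5:153079335-153079394) was well above background on 1 Control and 1 Dex array, with signals from 0.98 to 2.76 in Control and from 1.03 to 2.92 in Dex. Of 10 skeletal muscle markers on the array, 5 were well above background on every array. The myosin gene Myh2 was on none, while Tnnt3, Tnni2, Mb, Myog and Des were on all 8. The mean level of the muscle list was 4.80 to 5.06 in Control and 4.61 to 5.40 in Dex, lowest on Dex 1 and Dex 2, where Fbxo32 was highest. No marker of that list was called, and the part of muscle RNA in the signals of these ligases was not tested.

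The window from 250 bases before to 50 bases after the start of transcription was available from RefSeq (build GRCr8) for 7 of the 10 genes, and the names without an entry were Becn1, Map1lc3a and Fbxo32. It was searched on both strands for the E-box CACGTG, for the FoxO motif GTAAACA and for the glucocorticoid receptor site, either whole (AGAACA, any 3 bases, TGTTCT) or as its element AGAACA alone. An exact match to the whole receptor site was in none of the 7 windows and in 0.0149% of 33469 windows. In Trim63 the letters tgaacaatc directly before TGTTCT depart from the whole site only in their first letter. How often other windows hold such a near match was not counted. The element AGAACA was in Atg5, Gabarapl1 and Trim63 and in 20.7% of all windows. The E-box was in Atg5 and in 6.42% of all windows, and the FoxO motif was in Trim63 and in 3.78%. In Trim63 the receptor element and the FoxO motif, both on the reverse strand, lie side by side without overlap. This stretch is shown, with the matches in capitals, because Trim63 is known as a FoxO and glucocorticoid receptor target in muscle and was at background here. The E-box of Atg5 follows it. A match is a string of letters in these windows and does not show that a factor binds there.
Trim63, chr5:151817005-151817057, forward strand: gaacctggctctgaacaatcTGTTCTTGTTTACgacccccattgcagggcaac
Atg5, chr20:49380796-49380841, forward strand: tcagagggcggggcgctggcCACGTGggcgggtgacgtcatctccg

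The wider pathways were read from lists of other autophagy and muscle atrophy genes, with the brightest probe for each gene and the genes above left out. Of 52 other autophagy genes, 48 were on the array, 26 had a positive and 22 a negative difference, 2 were called higher and none lower. Their median difference was 0.00, as over all probes. Of 15 other atrophy genes, all on the array, 9 had a positive and 6 a negative difference, 1 was called higher and none lower, with a median of 0.05. Counting each gene once, 3 of 61 were called, all higher in Dex, where 0.778% of all probes were called and 0.563% were called higher. The 61 are brightest probes, and 53 of them were well above background on every array, against 58.5% of all probes. Shares over all probes are therefore not like for like. With dim probes left out, 562 of 28476 probes were called, 388 of them higher in Dex. In the same 61 genes the Dex arrays lay wholly above the Control arrays for 11 and wholly below for 3 (4.6% and 4.51% of all probes). The signal to noise statistic called 9 of the 61 higher and 1 lower, where it called 6.79% of all probes and 3.59% as higher in Dex. The 3 genes called by limma were Uvrag, Vmp1 and Cblb. Blocking on the replicate number left their fold changes as they were and ended the 3 calls (limma adjusted p = 0.131 for Uvrag, 0.149 for Vmp1 and 0.0700 for Cblb), although Dex was higher than Control in all 4 pairs for each gene. All 3 were called with normexp and with slide as a random block. The random block used a negative within-slide correlation (-0.235) and called 1838 probes, against 319 without a block. With 75th percentile scaling the call was kept for Cblb (limma adjusted p = 0.0242) and lost for Uvrag (limma adjusted p = 0.143) and Vmp1 (limma adjusted p = 0.204). Between Control 1 and Dex 3, on 1 slide, the differences were 1.26 for Uvrag, 0.87 for Vmp1 and 1.79 for Cblb.

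**Figure D4:**
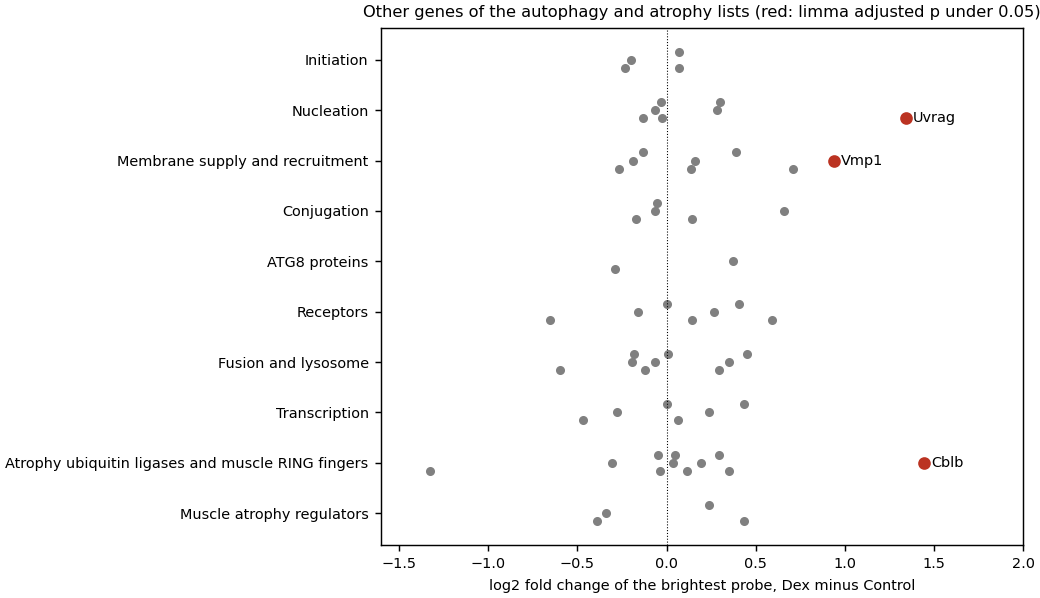
Log2 fold change, Dex minus Control, of the brightest probe of each other gene, by role in autophagy or atrophy (rows), with called genes in red and points offset within a row for legibility. Foxo1 and Foxo3 belong to both the Transcription and the Muscle atrophy regulators rows, most genes lie within 0.7 of 0 on either side, and Uvrag, Vmp1 and Cblb are called.

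Uvrag encodes a partner of Beclin 1 in the lipid kinase complex, and the array lists it as LOC308846. Its brightest probe, A_44_P310366 (chr1:156251897-156251956), read 9.65, 9.73, 9.94 and 9.97 in Control and 11.35, 11.32, 10.90 and 11.07 in Dex. Every Dex array was above every Control array by a wide step. Uvrag rose by a log2 fold change of 1.34 (SE 0.17, 95% interval 0.95 to 1.73, limma adjusted p = 0.0139), or 2.53-fold. Of its 2 other probes, A_43_P18307 was also called, at 1.19 (limma adjusted p = 0.0263), and A_44_P245761, a dimmer probe, had a difference of 1.64 without a call (limma adjusted p = 0.0951), which was 0.72 with normexp. The call of A_43_P18307 was kept in 6 of 16 alternatives and in 1 of the 8 fits without 1 array. It was lost with the replicate block (limma adjusted p = 0.124) and with 75th percentile scaling (limma adjusted p = 0.0513). The call of A_44_P310366 was kept without Dex 2, without Dex 3 and without Dex 4, and was lost without any one of the other 5 arrays, at limma adjusted p-values of 0.0578 to 0.0749 and differences of 1.28 to 1.39.

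Vmp1, listed as Tmem49, encodes a membrane protein of the endoplasmic reticulum that is needed to form autophagosomes. Probe A_44_P217541 (chr10:74879951-74880010) read 9.92, 9.86, 9.68 and 9.78 in Control and 10.88, 10.68, 10.80 and 10.65 in Dex, with a gap between the groups larger than the spread within either. The difference was 0.94 (SE 0.14, 95% interval 0.62 to 1.26, limma adjusted p = 0.0294). Its other probe, A_44_P555389, overlapped between the groups and differed by 0.25 (limma adjusted p = 0.624), so the probes of Vmp1 disagree in size. No set of 7 arrays kept the call, at limma adjusted p-values of 0.0689 to 0.136 and differences of 0.90 to 0.98.

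Cblb encodes Cbl-b, a RING finger ubiquitin ligase that restrains T cell activation and also acts on insulin signaling in unloaded muscle. Its probe A_44_P198539 (chr11:49748192-49748251) read 9.22, 9.13, 9.34 and 9.29 in Control and 10.65, 10.42, 11.01 and 10.68 in Dex. The groups were more than 1 log2 unit apart at their closest arrays, Control 3 and Dex 2. Cblb rose by 1.45 (SE 0.17, 95% interval 1.06 to 1.83, limma adjusted p = 0.00913), or 2.72-fold, and was the only listed ligase called. The call was lost without Control 2 (limma adjusted p = 0.0548) and without Control 4 (limma adjusted p = 0.0532), and was kept without any other single array.

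**Figure D5:**
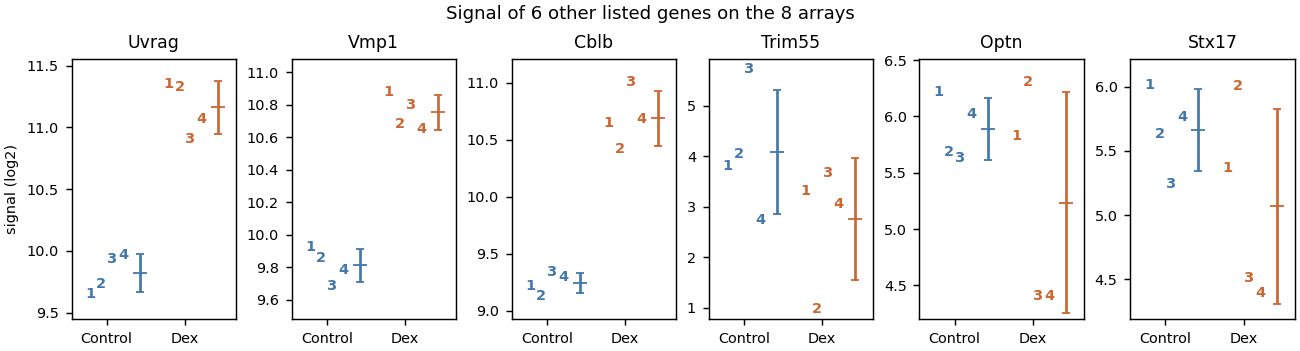
Signal on the log2 scale of Uvrag, Vmp1, Cblb, Trim55, Optn and Stx17 on each array, where the digits are the replicate numbers and the bar is the mean with its SD (n = 4), each panel with its own vertical axis. The 3 genes on the left have no overlap between the groups, and the 3 on the right overlap.

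Among the listed genes detected on every Control array, the differences of the main fit were most negative for Trim55, Optn and Stx17, and none of the 3 was called. This order depends on the processing. Tfeb, at -0.47 in the main fit (limma adjusted p = 0.397), was at -0.37 with normexp, more negative than any of the 3. Trim55 (listed as Rnf29), a muscle RING finger gene, had 3.80, 4.05, 5.72 and 2.74 in Control and 3.31, 0.98, 3.67 and 3.06 in Dex, and only 2 of its Dex arrays were well above background. The fitted difference of -1.32 (95% interval -3.05 to 0.40, limma adjusted p = 0.612) rests in part on arrays at background and is not a reliable size. It was -0.22 with normexp and -0.13 within the slide of Control 1 and Dex 3, it was -0.73 without Dex 2 and -0.78 without Control 3, and the other Trim55 probe, A_44_P292995, was not well above background on any array. Optn, a cargo receptor, read 6.22, 5.69, 5.63 and 6.02 in Control and 5.83, 6.31, 4.40 and 4.40 in Dex, for a difference of -0.65 (limma adjusted p = 0.696). Stx17, a SNARE of the autophagosome that fuses with the lysosome, read 6.01, 5.63, 5.25 and 5.76 in Control and 5.36, 6.00, 4.51 and 4.39 in Dex, for a difference of -0.59 (limma adjusted p = 0.661). Leaving out 1 array gave -0.38, without Dex 3 or without Dex 4, to -1.01, without Dex 2, for Optn, and -0.37, without Dex 4, to -0.91, without Dex 2, for Stx17. With normexp the differences were -0.22 and -0.21, and between Control 1 and Dex 3, on 1 slide, they were -1.82 and -1.501. For Optn and Stx17 it was again Dex 3 and Dex 4 that lay below the Control arrays, while Dex 2 was at or near the top. The FoxO genes, which regulate both lists in muscle, were not called, with Foxo1 at 0.43 (limma adjusted p = 0.862), Foxo3 at 0.24 (limma adjusted p = 0.769) and Foxo4 at 0.06 (limma adjusted p = 0.986). Their Dex arrays went opposite ways. Dex 1 to 4 differed from the Control mean by -0.64, -0.71, 1.64 and 1.45 for Foxo1, by 0.53, 0.63, -0.08 and -0.12 for Foxo3 and by -1.13, -1.70, 1.44 and 1.64 for Foxo4. Leaving out 1 array gave 0.03 to 0.82 for Foxo1, 0.11 to 0.36 for Foxo3 and -0.46 to 0.65 for Foxo4, so no direction is read from these means.

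The member of lowest p by its brightest probe was Map1lc3b. The named genes with the pattern most like its probe A_44_P180080 over the 8 arrays, each centred on its own mean, were Parp1 (root mean square difference 0.0240), Rpl5 (0.0453) and B2m (0.0471), on the log2 scale. Parp1 encodes a DNA damage sensor, Rpl5 a ribosomal protein and B2m the light chain of MHC class I. Parp1 read 11.56, 11.55, 11.55 and 11.45 in Control and 11.75, 11.68, 11.70 and 11.66 in Dex, a step of the same small size. These genes were selected for their likeness, and the likeness is a description.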

How the data were processed

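Per the labels and the paper's methods, the authors made Cy3-labeled cRNA from total RNA and hybridized the cRNA to 1-color arrays, and Agilent Feature Extraction (version 9.5.3.1) gave background-subtracted spot intensity. The authors also deposited log2 values, made by quantile normalization and a median polish per probe. These values were rebuilt from the scanner intensities without control and outlier spots (16 missing values), and each array correlated with its deposited log2 values at 0.999999 or more. No spot was saturated. Probe positions are those of the files (build rn3). No value column lacked a sample (0).

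Of 10806 probes with a RefSeq mRNA accession, 10488 were found in the rat reference table of symbols, and 21300 probes have a current symbol in all. The members and lists were chosen with earlier results of these data known. Named are all members, other listed genes that were called or had the 3 most positive or 3 most negative differences (detected over background throughout the brighter group), and the 3 symbols of most similar pattern. Others are named after their values were seen.

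limma (version 3.58.1, R version 4.3.3) was fitted without a block, two-sided, with Benjamini-Hochberg adjustment, and was tested on simulated data. Changes of the size of the member differences were not recovered there as calls, and larger ones were recovered more often. The changed probes were drawn from the whole array, with a median SD of 0.28 in Control and 0.50 in Dex. The 16 probes had 0.12 and 0.18, so that recovery does not measure the power for them. Deviations from the group means correlated at 0.397, 0.129, 0.55 and 0.184 between arrays of the same replicate number in the labels, each over 0.1, so a fit blocked on that number was run as an alternative to the unpaired fit that gives the p-values here. The signal to noise statistic, the mean difference over the sum of the SDs, was set against the values from every relabeling of the 8 arrays, with probes pooled. Its nominal p is that of the tail in the direction of the difference. Alternatives were 75th percentile scaling, normexp (offset 50), the deposited table, a filter on dim probes, outlier spots kept, replicate or slide as a block, and leaving out each array. The 4 arrays per group limit the precision.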

Additional observations from a re-analysis of the deposited data

Results flagged for a closer look

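On Becn1 probe A_44_P442867, Control 3 (11.26) stood below the other Control arrays (11.44 to 11.46), with a gap that was 0.911 of the range of the group. This was 1 of 52 groups of 4 arrays examined, of which chance flags about 1 in 20.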

How the results depend on the processing

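None of the 16 probes was called in the limma alternatives, and 2, both of Map1lc3b, were called by the signal to noise statistic when every probe of a gene was counted, a choice made after seeing the data (0 with the brightest probe). Over all probes the count of calls was 319, of which 72.4% were higher in Dex. It was 166 with 75th percentile scaling, 912 with normexp (54.5% higher), 562 without dim probes, 81 with the replicate block (92.6% higher), 1 with slide as a fixed block, where the within-slide comparison rests on Control 1 and Dex 3, 1838 with slide as a random block (60.7% higher) and 2784 by the signal to noise statistic. Leaving out 1 array gave 96, without Control 4, to 249, without Dex 3. The replicate block changed no call of the 16 probes.

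The sign turned, always without a call, with slide as a fixed block for Map1lc3a (-0.047), Fbxo32 (-0.019), Sqstm1 A_44_P550423 (-0.83) and Trim63 A_42_P667292 (1.35), with slide as a random block for Sqstm1 A_44_P367551 (-0.029) and Atg5 A_44_P761066 (0.011), and with 75th percentile scaling for the latter (0.0081). Leaving out 1 array turned it for Atg12 A_42_P603585 (range -0.29 to 0.022), Sqstm1 A_44_P367551 (-0.037 to 0.083), Sqstm1 A_44_P550423 (-0.11 to 0.68), Ulk1 (-0.088 to 0.23) and Atg5 A_44_P761066 (-0.35 to 0.12). It gave -0.071 to -0.17 for Becn1 A_44_P442867, -0.058 to -0.17 for the probe described as similar to Gabarapl1 and 0.019 to 0.11 for Sqstm1 A_44_P367550, extremes reached without Dex 3 and Control 3, Control 2 and Control 3, and Control 1 and Control 3. Between Control 1 and Dex 3, on 1 slide, Becn1 differed by -0.24 and -0.32, Ulk1 by 0.59, Atg5 by -0.81 and 0.43, and Sqstm1 by 0.40 (A_44_P367551) and 0.30 (A_44_P367550). The median of the other atrophy genes was 0.12 without dim probes, -0.062 with slide as a fixed block, and -0.030 to 0.13 when 1 array was left out. Uvrag was called in 8 of 16 alternatives, Vmp1 in 5 and Cblb in 12. The cause of these shifts was not tested. Sqstm1 A_44_P550423 and the Trim63 probes were not well above background on all arrays, so the sign of their differences has no meaning in any of these settings.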
